A study of Apis mellifera with 24 samples.

Results

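In the ovaries of 12 honey bee queens (Apis mellifera ligustica), 75 of 21596 transcripts were nearly absent from virgin queens and present in each mated queen. They were selected on FPKM (fragment counts scaled to transcript length and library size), with a mean of at most 1 FPKM over the 3 virgin libraries and at least 5 FPKM in each of the 9 libraries of mated queens. Since the members were chosen by these values, the contrast of mated with virgin ovaries is described here with no test. Of the 7847 transcripts that reached 5 FPKM in each mated library, the 75 were 0.956%, and the other 7772 serve below as the transcripts to which they are compared.

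Each group held 3 queens, and each queen gave 1 mRNA library. Egg-laying recovery queens were mated, caged in their own hive for 7 days and released for 24 h, within which they laid again. Egg-laying inhibited queens were mated, had laid, and were caged in their own hive for 7 days, which stopped egg-laying. Egg-laying queens were mated and not caged, and virgin queens were neither mated nor caged. All were sisters from 1 colony, 6 days old when assigned to a group, and mating was by instrumental insemination, so "mated" here means inseminated and laying at some time. The age of each group at sampling is not given in the sources used here, and age, days since insemination and treatment cannot be told apart. No source says whether queens of a group were handled on 1 day, so the p-values measure the spread between these queens as sampled.

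The ovary of a queen consists of many ovarioles, tubes in which germline cells form oocytes and nurse cells under a layer of follicle cells. In a virgin queen few follicles develop, whereas in a laying queen most of the tissue is growing follicles, and the nurse cells fill the oocyte with RNA and protein for the embryo. In whole ovaries, fewer cells of a type and less RNA per cell cannot be told apart. The germline markers vasa, nanos and aubergine, which mark the ovary itself, summed to between 394 and 474 FPKM in mated libraries and to between 174 and 283 FPKM in virgin libraries. Aubergine was lower in egg-laying (3.68 FPKM) and inhibited means (2.66 FPKM) than in the virgin mean (4.05 FPKM). Its recovery mean was 7.56 ± 7.48 FPKM (SD, n = 3). The patterning genes caudal, otd2, hunchback and Kruppel, whose RNA or protein patterns the early embryo, summed to between 1640 and 1949 FPKM in mated libraries and to between 20.7 and 77.7 FPKM in virgin libraries. Nearly all of that sum was caudal, hunchback was listed at 0 in all 12 libraries, and otd2 was no higher in mated than in virgin means. The 8 muscle genes, which mark the muscular sheath, summed to between 83.6 and 119 FPKM in mated libraries and to between 368 and 707 FPKM in virgin libraries, with TpnCIIa as the only one of them higher in mated means. The 7 fat body genes summed to between 74.1 and 181 FPKM in mated libraries and to between 143 and 498 FPKM in virgin libraries. Vitellogenin (Vg) had the highest virgin mean of these genes, at 170.5 ± 159 FPKM (SD, n = 3), and thus varied widely between virgin queens. HEX70b was higher in mated than in virgin means. The part of these tissue proportions in the selection was not tested. None of the germline, patterning, cyclin B3, histone, fat body, muscle or hemocyte genes of the lists was among the 75.

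The level of the set was moderate. The mean over the 9 mated libraries had a median of 15.9 FPKM over the 75 transcripts (quartiles 11.4 and 46.2 FPKM, range 6.18 to 397 FPKM), against a median of 26.3 FPKM over the other 7772. It reached 20 FPKM for 31 transcripts, 50 FPKM for 18 and 100 FPKM for 6. Together the 75 transcripts made up between 0.479% and 0.653% of the summed FPKM of a mated library, and between 0.0078% and 0.0099% of a virgin library. The 4 most abundant members alone carried between 33.7% and 42.2% of the members' sum in mated libraries.

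**Figure D1:**
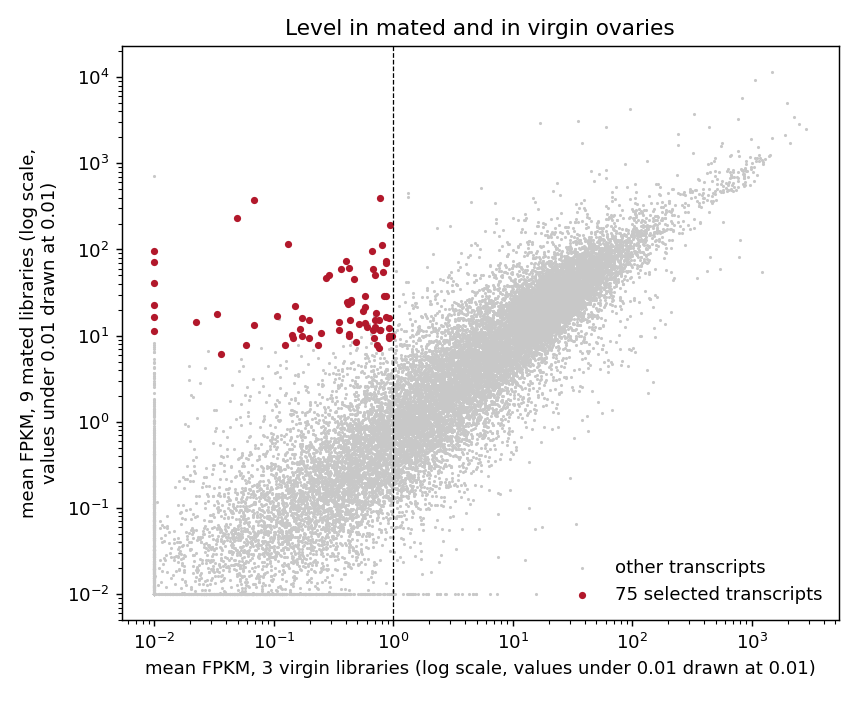
Each point is a transcript, with its mean FPKM over the 9 mated libraries on the vertical axis and over the 3 virgin libraries on the horizontal axis, both on log scales. The 75 selected transcripts (red) lie left of the dashed line at 1 FPKM and between 6.18 and 397 FPKM in mated ovaries. Grey points are other transcripts.

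The virgin side of the selection was not uniform. The virgin mean had a median of 0.435 FPKM over members, and it was at most 0.1 FPKM for 13 of them. A total of 20 members had 1 virgin library or more listed at 0, whereas 55 were above 0 in all 3. In 20 members a virgin library exceeded 1 FPKM although the mean did not, and the highest single value was 2.95 FPKM, of XM_006569525.1. The ratio of the mated to the virgin mean had a median of 58.0 and a minimum of 9.46 over the 73 members with a virgin mean above 0. Ratios of members with virgin means far below 0.1 FPKM are not given, since such values cannot be read as a level.

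The 2 most abundant members averaged 397 and 372 FPKM in mated ovaries. LOC100578107 (XM_003250895.2) had 459, 324 and 348 FPKM in recovery queens, 432, 402 and 481 FPKM in inhibited queens, 421, 333 and 369 FPKM in egg-laying queens, and 0.973, 0.546 and 0.802 FPKM in virgin queens. Every mated queen stood far above every virgin queen, and the 3 mated groups overlapped. LOC100577698 (XM_003250045.2) had 389.6, 291 and 461 FPKM in recovery queens, 564, 458 and 358 FPKM in inhibited queens, 268, 249 and 309 FPKM in egg-laying queens, and 0.145, 0.0385 and 0.0196 FPKM in virgin queens. All inhibited queens lay above all egg-laying queens, with a log2 difference of 0.72 ± 0.19 (SE), which did not pass the test (limma with Benjamini-Hochberg adjustment, adjusted p = 0.274). LOC100576982 (XM_003250085.2) averaged 242 ± 42.0 FPKM in recovery, 229 ± 21.5 FPKM in inhibited, 227 ± 58.3 FPKM in egg-laying and 0.0493 ± 0.0593 FPKM in virgin queens (SD, n = 3 each). No other listed transcript was paired with any of these genes, so each was nearly absent from virgin ovaries as far as gene IDs reach. Listed transcripts without a gene ID could still belong to them. The gene tables used here give no function for these genes.

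The other members among the 10 most abundant ran from 72.7 to 195 FPKM in mated means. XM_006568807.1, which has no gene ID, averaged 179 ± 74.3 FPKM in recovery, 187 ± 34.0 FPKM in inhibited and 218 ± 15.2 FPKM in egg-laying queens, beside 0.946 ± 0.228 FPKM in virgin queens (SD, n = 3 each). LOC100577492 (XM_006562684.1) averaged 115 FPKM and LOC726066 (XM_001121836.3) 112 FPKM over the 9 mated queens. LOC551180 (XM_006565481.1) averaged 97.1 FPKM, LOC726969 (XM_001122685.3) 73.5 FPKM and LOC100576569 (XM_003250216.2) 72.7 FPKM. For LOC726066, LOC551180 and LOC726969 the recovery mean was the lowest of the mated groups, with log2 differences from egg-laying queens of -0.44, -0.96 and -0.56, none of which passed the test (limma with Benjamini-Hochberg adjustment, adjusted p between 0.146 and 0.162).

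Obp7 (NM_001040220.1), an odorant-binding protein gene, was listed at 0 in all 3 virgin queens. Odorant-binding proteins are small soluble proteins that carry hydrophobic molecules, best known from the antennae of insects and also found in other tissues. Obp7 had 91.9, 70.1 and 74.2 FPKM in recovery queens, 129, 80.7 and 116 FPKM in inhibited queens, and 117, 87.6 and 88.0 FPKM in egg-laying queens. The groups overlapped, and the log2 difference of recovery from inhibited queens was -0.44 ± 0.18 (SE, limma with Benjamini-Hochberg adjustment, adjusted p = 0.252). LOC724658 (XM_006570929.1) was the only other member at 0 in every virgin queen. It had 39.4, 26.7 and 35.6 FPKM in recovery queens, 42.1, 41.8 and 42.5 FPKM in inhibited queens, and 44.8, 42.8 and 47.4 FPKM in egg-laying queens. All recovery queens were below all inhibited and egg-laying queens in LOC724658, with a log2 difference of -0.42 from egg-laying queens that did not pass the test (limma with Benjamini-Hochberg adjustment, adjusted p = 0.185).

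Gene IDs were found for 48 of the 75 members, for 28 in the supplementary tables of the study and for 20 in a RefSeq table, and the 48 were 48 different genes. A member nearly absent from virgin ovaries was not always a gene absent from them. For 26 members no other transcript was paired with the gene, and the virgin mean of these genes was at most 0.927 FPKM, with single virgin libraries up to 2.28 FPKM (LOC726969). For 22 members other transcripts were listed, and in 20 of the 22 these others summed to more than 1 FPKM in virgin ovaries, with a median of 17.1 FPKM over the 20. With all transcripts of the gene summed, the ratio of mated to virgin queens in these 20 genes had a median of 2.71 (range 0.944 to 30.3) and was above 2 in 16. Over all 48 genes, the gene sum was at most 1 FPKM in virgin queens for 28. Of the 7772 other transcripts, 1983 had no gene ID, so a gene can have further listed transcripts that were not paired with it.

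LOC724658 shows such a difference between transcripts. Its selected transcript averaged 33.9, 42.1 and 45.0 FPKM in recovery, inhibited and egg-laying queens and was listed at 0 in virgin queens, whereas its other transcript averaged 28.7, 29.2 and 31.9 FPKM in the same mated groups and 51.7 FPKM in virgin queens. In LOC409288 the selected transcript (XM_006571490.1) averaged 49.1, 51.6 and 49.6 FPKM in recovery, inhibited and egg-laying queens and 0.702 FPKM in virgin queens. Its other transcript averaged 55.5, 68.3 and 59.8 FPKM in these mated groups and 84.7 FPKM in virgin queens. In both genes the other transcript was thus lower in mated than in virgin ovaries, as in 6 of the 22 genes, and in the other 16 it was higher. FAR1 (XM_006565149.1), which encodes a fatty acyl-CoA reductase that makes fatty alcohols, is among the 16. Its selected transcript had 7.91, 6.84 and 9.31 FPKM in recovery queens, 12.07, 11.98 and 7.53 FPKM in inhibited queens, 15.2, 13.7 and 11.8 FPKM in egg-laying queens, and 0.609, 0 and 0.131 FPKM in virgin queens. The other 5 transcripts of FAR1 summed to 234 FPKM in mated and 41.5 FPKM in virgin ovaries. FAR1 and LOC408351 below were named for their annotation after their values were seen. LOC408351 (XM_006566334.1), annotated as serine-rich adhesin for platelets, averaged 7.79 FPKM in mated and 0.735 FPKM in virgin ovaries, beside 118 and 31.9 FPKM for its 5 other transcripts. Where a gene has several transcripts, the values depend on how the software divided reads between them, and the part of this division in the selection was not tested.

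In the order of protein-coding genes in the RefSeq annotation of Amel_HAv3.1, 44 of the 48 genes could be placed, and 2 pairs of them were direct neighbours. One pair was LOC100576529 and LOC100576569, the other LOC551938 and LOC724867. No other placed gene had another of the set within 5 coding genes.

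The next question was whether the 75 transcripts kept their level through caging and release. As a set they stayed at the mated level in each state, which the selection itself demanded down to 5 FPKM. The median member had 16.2, 13.3 and 14.5 FPKM in the 3 recovery queens, 16.9, 19.1 and 17.2 FPKM in the 3 inhibited queens and 17.6, 18.2 and 17.2 FPKM in the 3 egg-laying queens, against 0.442, 0.306 and 0.287 FPKM in the 3 virgin queens. The highest and the lowest group mean differed by less than 2-fold in 70 of the 75 members (93.3%), and in 99.0% of the other 7772 transcripts. The median of this ratio was 1.33 over members and 1.16 over the others.

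**Figure D2:**
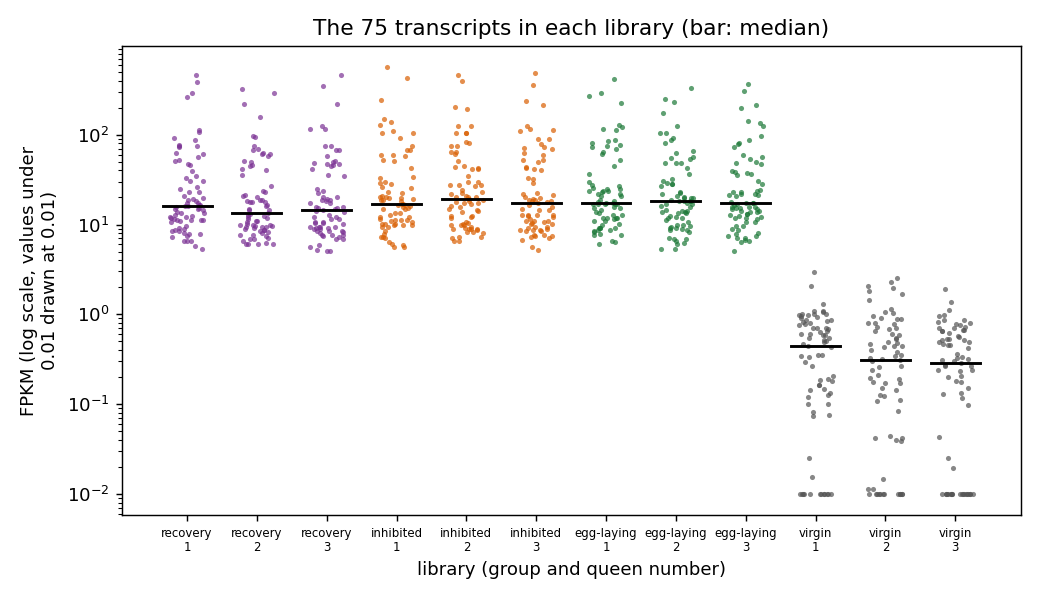
FPKM (vertical axis, log scale) of the 75 transcripts in each of the 12 libraries (horizontal axis), with a bar at the median. The medians lie between 13.3 and 19.1 FPKM in mated libraries, lowest in recovery queens 2 and 3, and between 0.287 and 0.442 FPKM in virgin libraries.

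Between single queens the members varied more than other transcripts of mated ovaries, which is given as a description with no test. The coefficient of variation (CV, SD divided by mean) over the 9 mated libraries had a median of 23.2% over members (quartiles 16.2% and 32.0%) and of 11.4% over the other 7772 transcripts. The difference was present at each level of expression. The medians were 24.5% and 14.8% for members and others with mated means of 5 to 15 FPKM, 28.9% and 10.8% from 15 to 50 FPKM, and 18.1% and 9.54% at 50 FPKM or more. It was also present where no other transcript was paired with the gene, with 23.6% for 26 members and 10.04% for 3220 other transcripts. The highest and the lowest of the 9 mated libraries were within 2-fold for 35 members (46.7%) and for 90.4% of the other transcripts.

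**Figure D3:**
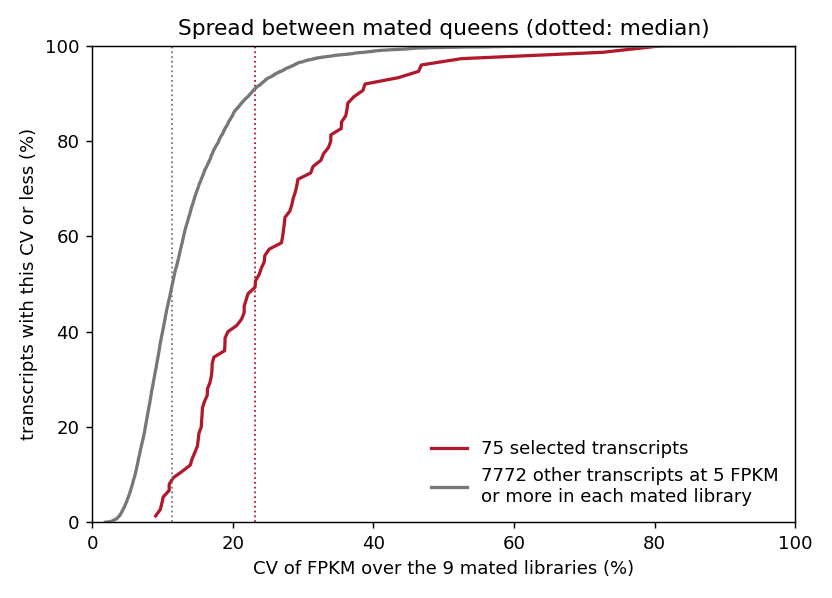
Cumulative share of transcripts (vertical axis, %) by the CV of FPKM over the 9 mated libraries (horizontal axis, %). The curve of the 75 selected transcripts (red, median 23.2%) lies to the right of that of the 7772 others (grey, median 11.4%).

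The 5 steadiest members had CVs between 9.03% and 10.95%. LOC409288 (XM_006571490.1) led them, with 46.8, 49.9 and 50.6 FPKM in recovery queens, 60.2, 50.4 and 44.1 FPKM in inhibited queens, 52.6, 47.9 and 48.2 FPKM in egg-laying queens, and 0.981, 0.260 and 0.865 FPKM in virgin queens. LOC100578709 (XM_003251510.2) averaged 7.30, 6.88 and 7.23 FPKM in recovery, inhibited and egg-laying queens, and XM_006568648.1 averaged 17.5, 19.3 and 18.7 FPKM. XM_006570851.1 averaged 6.10, 6.45 and 5.98 FPKM, and LOC100578334 (XM_003249062.2) 7.76, 8.21 and 7.58 FPKM in the same groups. For these 5, every 95% interval of a log2 difference between mated groups lay between -0.39 and 0.42.

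Recovery queens 2 and 3 stood low among the mated queens. A total of 40 members (53.3%) had their lowest mated value in recovery queen 2 or 3, which held for 32.5% of the other transcripts. The median deviation of a member from its own mean over the mated queens was -0.29 on the log2 scale in recovery queen 2, -0.20 in recovery queen 3 and 0.02 in recovery queen 1. Over the other 7772 transcripts these medians were -0.02, -0.04 and -0.01. In the inhibited queens the members' medians were between 0.01 and 0.10, and in the egg-laying queens between -0.05 and 0.13. Without recovery queens 2 and 3 the median CV was 20.4% over members and 10.2% over the others.

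Recovery queens were set against inhibited queens to see what followed release. The recovery mean was below the inhibited mean on the log2 scale in 53 of 75 members (70.7%), beside 53.0% of all transcripts. The median log2 difference was -0.21 over members and -0.02 over all 17362 transcripts tested. Without recovery queen 2 the members' median was -0.13. In 14 members (18.7%) all recovery queens lay below all inhibited queens, and in 1 all lay above. The shares were 13.1% and 12% over all transcripts and 17.5% and 17.6% over the 7772 others, so the count below was near that of the others. A total of 3 members fell (adjusted p under 0.05) and 0 rose, where 0.478% of all transcripts fell and 0.783% rose. Of the 7772 others, 164 (2.11%) passed this test in either direction. For 53 members (70.7%) the 95% interval of the difference lay within 2-fold either way on the scale of FPKM + 1. It did so for 84.9% of all transcripts and 96.5% of the 7772 others. The added 1 FPKM shrinks differences of low transcripts, which are part of all transcripts but not of the 7772 others. With 0.01 FPKM added in place of 1, the interval lay within 2-fold for 49 members. The fat body genes summed to between 74.1 and 109.6 FPKM in recovery and to between 128 and 181 FPKM in inhibited queens, and their part in the members' values was not tested.

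The 3 members that fell after release were XM_006561232.1, XM_006563358.1 and XM_624017.4. XM_006561232.1 (gene 409868) had 13.7, 10.9 and 17.3 FPKM in recovery queens, 33.0, 43.6 and 49.9 FPKM in inhibited queens and 24.6, 28.3 and 35.2 FPKM in egg-laying queens, with 0.956, 0.303 and 1.36 FPKM in virgin queens. Recovery queens lay below all other mated queens. The log2 difference of recovery from inhibited queens was -1.53 ± 0.20 (SE, limma with Benjamini-Hochberg adjustment, adjusted p = 0.0107), and this call held under all 17 alternatives. The log2 difference from egg-laying queens, -1.03, did not pass the test (limma with Benjamini-Hochberg adjustment, adjusted p = 0.105). The other 2 transcripts of the gene summed to 55.4, 41.3 and 56.5 FPKM in recovery queens, to 110.4, 106 and 144 FPKM in inhibited queens, to 62.3, 75.9 and 88.2 FPKM in egg-laying queens and to 6.38, 3.52 and 5.67 FPKM in virgin queens. The recovery queens were the lowest of the mated queens in these transcripts too.

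XM_006563358.1 is tied to gene 725202 in the study's tables and to another gene in the RefSeq table. It had 17.2, 14.4 and 18.7 FPKM in recovery queens, 111, 106 and 42.0 FPKM in inhibited queens and 26.7, 36.7 and 39.4 FPKM in egg-laying queens, with 0.352, 0.327 and 0.726 FPKM in virgin queens. Its CV of 80.8% was the highest of the set. Recovery was lower than inhibited by a log2 difference of -2.18 ± 0.33 (SE, limma with Benjamini-Hochberg adjustment, adjusted p = 0.0195). All inhibited queens were above all egg-laying queens, with a log2 difference of 1.20 that did not pass the test (limma with Benjamini-Hochberg adjustment, adjusted p = 0.278) but did without inhibited queen 3 (adjusted p = 0.0208). The call against inhibited queens was lost in 5 of 17 alternatives, which were the replicate block (adjusted p = 0.0624, limma) and the fits without inhibited queen 1 or 2 (adjusted p = 0.0740 and 0.0644, limma) and without recovery queen 2 or 3 (adjusted p = 0.0964 and 0.0564, limma).

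XM_624017.4, which has no gene ID, had 8.48, 8.80 and 5.07 FPKM in recovery queens, 15.2, 17.2 and 15.02 FPKM in inhibited queens and 11.9, 9.89 and 11.7 FPKM in egg-laying queens, with 0.101, 0.648 and 0.302 FPKM in virgin queens. The 3 mated groups did not overlap. The log2 difference of recovery from inhibited queens was -1.02 ± 0.18 (SE, limma with Benjamini-Hochberg adjustment, adjusted p = 0.0364). This call held in 8 of 17 alternatives, with adjusted p-values up to 0.109, and was lost in the fit of all 12 libraries, with a replicate block, with no filter, without egg-laying queen 1 or 2, without any 1 of the inhibited queens and without recovery queen 2.

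**Figure D4:**
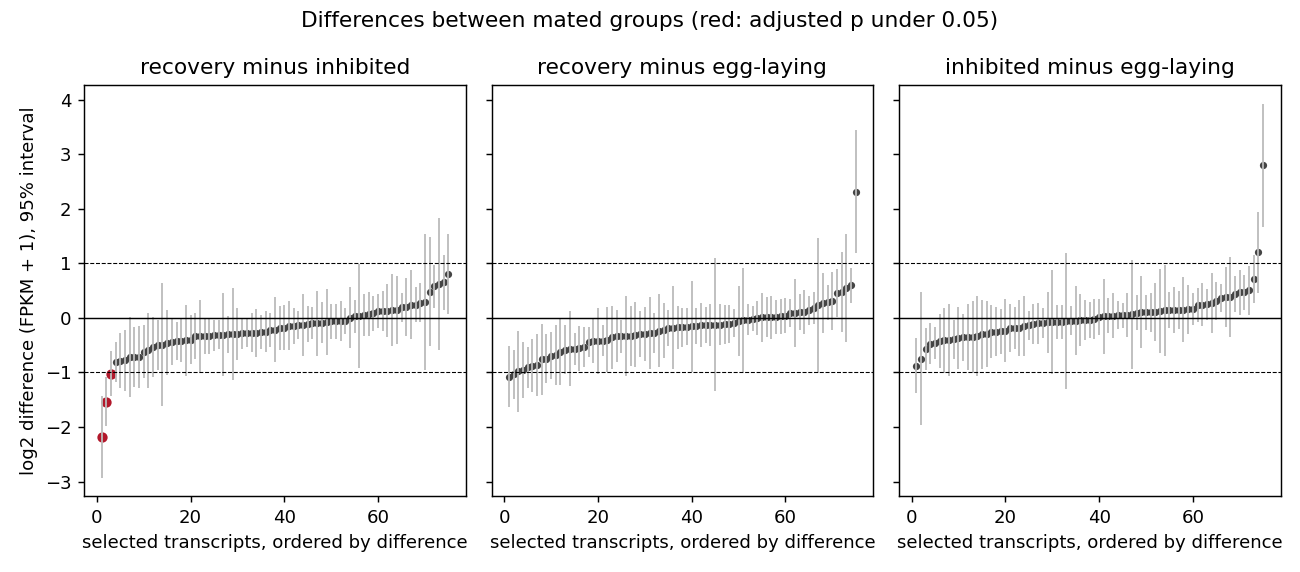
Log2 differences of FPKM + 1 between mated groups for each of the 75 transcripts, in order of size within each panel, with 95% intervals as vertical lines and dashed lines at 2-fold. The 3 red points at the left of the panel for recovery minus inhibited queens are the only differences that passed the test, at -2.18, -1.53 and -1.02.

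Recovery queens were also set against egg-laying queens that had not been caged. No member passed the test (limma with Benjamini-Hochberg adjustment, 0 of 75). Over all transcripts 0.0288% fell and 0.0576% rose by this test, which is 5 and 10 transcripts, against 8 and 27 after rescaling the libraries to the same sum. In 19 members (25.3%) all recovery queens lay below all egg-laying queens, and in 2 (2.67%) all lay above. The shares were 11.2% and 8.61% over all transcripts and 16.9% and 9.07% over the 7772 others. The median log2 difference was -0.17 over members and -0.01 over all transcripts, and the members' median was -0.11 without recovery queen 2. The interval lay within 2-fold on the scale of FPKM + 1 for 54 members (72.0%), for 86.0% of all transcripts and for 97.1% of the others. With 0.01 FPKM added in place of 1, it did so for 47 members. A total of 2 members passed without recovery queen 1, 1 higher and 1 lower in recovery queens, where 109 of all 17351 transcripts tested passed. Both comparisons of the recovery group use the same 3 queens, so their falls are not separate observations.

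Inhibited queens were set against egg-laying queens to follow the inhibition of egg-laying. No member passed the test (limma with Benjamini-Hochberg adjustment, 0 of 75), while 1 passed without inhibited queen 3 and 1 without recovery queen 1. Over all transcripts 0.0346% fell and 0.0634% rose with all 9 libraries. Without inhibited queen 3, 8 of all transcripts passed, and without recovery queen 1, 35 passed. The groups did not overlap in 7 members (9.33%) with inhibited queens above and 6 (8%) with inhibited queens below. The shares were 7.79% and 7.26% of all transcripts and 6.05% and 10.2% of the others. The median log2 difference was -0.03 over members and -0.01 over all transcripts. Without 1 library the members' median lay between -0.09 and 0.01, above 0 without egg-laying queen 3 or inhibited queen 3. The interval lay within 2-fold on the scale of FPKM + 1 for 62 members (82.7%), for 86.4% of all transcripts and for 97.2% of the others. With 0.01 FPKM added in place of 1, it did so for 54 members. The fat body genes summed to between 128 and 181 FPKM in inhibited and to between 86.3 and 99.9 FPKM in egg-laying queens, and the part of this in the members' values was not tested.

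Obp13 (NM_001040224.1), the second odorant-binding protein gene of the set, had the largest of these differences. It had 30.5, 74.7 and 126 FPKM in recovery queens, 104.7, 104.8 and 73.7 FPKM in inhibited queens, 13.8, 20.8 and 6.70 FPKM in egg-laying queens, and 0.921, 0.344 and 0 FPKM in virgin queens. All caged queens, released or not, were above all egg-laying queens. The log2 difference of inhibited from egg-laying queens was 2.80 ± 0.50 (SE, limma with Benjamini-Hochberg adjustment, adjusted p = 0.102), which passed only without recovery queen 1 (adjusted p = 0.0346). That of recovery from egg-laying queens was 2.31 ± 0.50 (SE, limma with Benjamini-Hochberg adjustment, adjusted p = 0.134). Of the 17 odorant-binding protein genes found in the table, a list added after values were seen, Obp7 and Obp13 were the 2 members, and 5 genes averaged at least 5 FPKM in each mated group. Outside the set, Obp14 averaged 87.8, 65.3 and 19.8 FPKM in recovery, inhibited and egg-laying queens and 14.6 FPKM in virgin queens. Obp9 averaged 66.8, 85.2 and 94.4 FPKM in these mated groups and 5.22 FPKM in virgin queens. Obp10 was lower in mated groups (5.32, 6.16 and 5.28 FPKM) than in virgin queens (11.8 FPKM).

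Over the 3 mated groups at once, 2 of the 75 members differed (limma moderated F-test with Benjamini-Hochberg adjustment, 0.691% of all transcripts), XM_006561232.1 at an adjusted p of 0.0235 and XM_006563358.1 at 0.0482. The other members with high CVs were spread within groups. XM_006567319.1 (gene 102656217, CV 52.5%) had 45.7, 21.2 and 12.2 FPKM in recovery queens, 10.1, 35.1 and 8.49 FPKM in inhibited queens and 24.7, 28.2 and 22.97 FPKM in egg-laying queens. LOC552027 (XM_006558360.1, CV 46.4%) had 10.8, 41.7 and 34.96 FPKM in recovery queens, 15.997, 26.7 and 20.2 FPKM in inhibited queens and 36.8, 27.0 and 9.66 FPKM in egg-laying queens. In both, the mated groups overlapped.

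**Figure D5:**
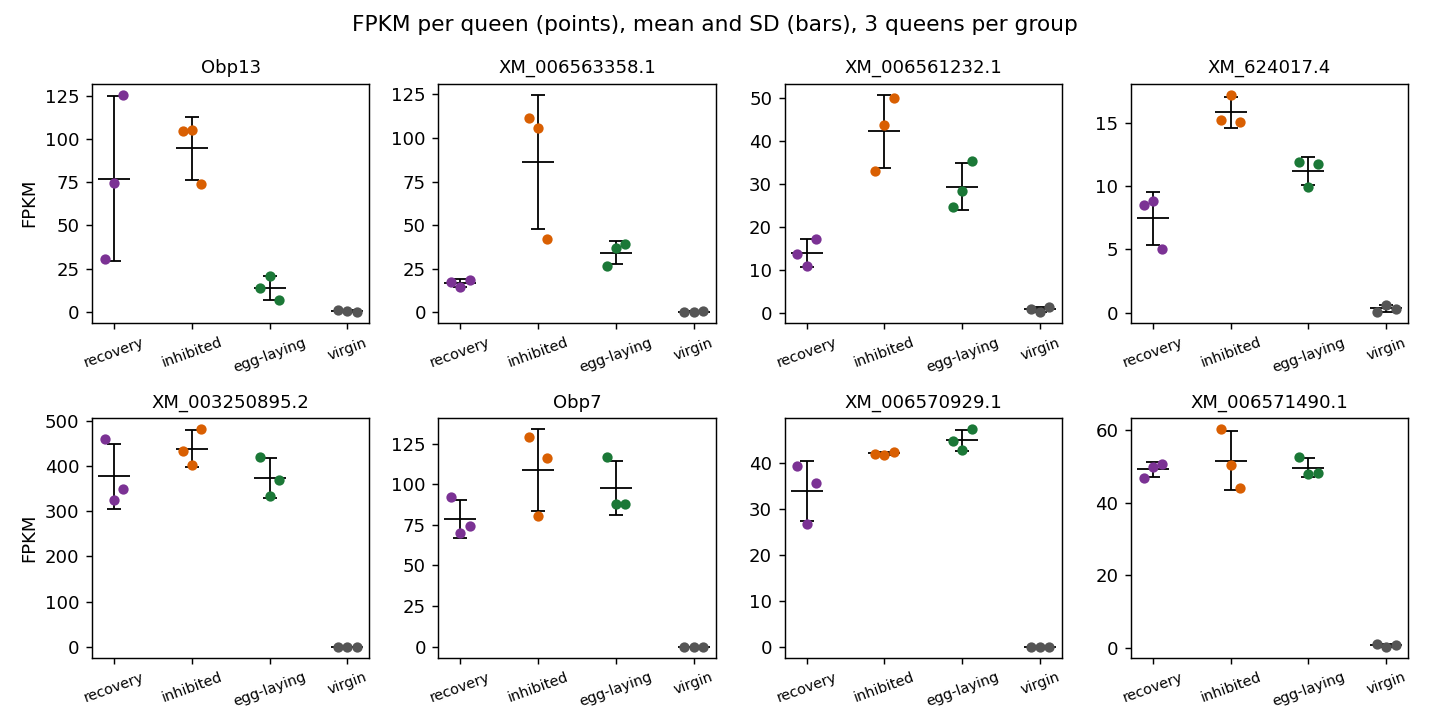
FPKM (vertical axes, linear) of 8 members in each queen (points), by group (horizontal axes), with mean and SD of 3 queens. Obp13 is lower in egg-laying than in caged or released queens, the other 3 transcripts of the upper row are lowest in recovery among mated queens, and the 4 of the lower row stay within 2-fold over all mated queens.

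The minimum of 5 FPKM in each mated library bears on this account of stability, since it leaves out transcripts below it in any mated queen. A total of 58 transcripts had a virgin mean of at most 1 FPKM and a mated mean of at least 5 FPKM but a mated library below 5 FPKM, and in 19 of these 58 (32.8%) the group means differed by 2-fold or more, against 5 of the 75 members. Only 3 of the 58 averaged 15 FPKM or more, and these were named after their values were seen. XM_001123087.3 had 1012, 98.3 and 1182 FPKM in recovery queens, 7.28, 919 and 0 FPKM in inhibited queens and 1291, 1104 and 868 FPKM in egg-laying queens, and it was listed at 0 in all virgin queens. Values this uneven within a group can be failed estimates, which the FPKM alone cannot show. XM_006568515.1 (gene 551263) had 36.3, 25.2 and 18.8 FPKM in recovery queens, 2.87, 3.65 and 3.15 FPKM in inhibited queens, 18.8, 13.1 and 17.2 FPKM in egg-laying queens and at most 0.170 FPKM in virgin queens. XM_006565450.1 (gene 102656570) had 7.08, 4.37 and 4.70 FPKM in recovery queens, 25.6, 39.0 and 27.5 FPKM in inhibited queens, 11.3, 16.6 and 15.02 FPKM in egg-laying queens and at most 0.964 FPKM in virgin queens. Nearest to the thresholds, the lowest mated value was 5.03 FPKM inside (XM_003250530.2) and 4.95 FPKM outside (XM_006557654.1), and the virgin mean was 0.983 FPKM inside (XM_006569525.1) and 1.00 FPKM outside (XM_006570419.1).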

How the data were processed

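Each ovary gave 1 strand-specific, rRNA-depleted library. The authors aligned the reads to Amel_4.5 with TopHat2 2.0.9 and assembled transcripts with Cufflinks (version not given in the sources used here). They deposited a table of FPKM per transcript, and the sample records also list HTSeq 0.6.1. The fragments behind an FPKM value are unknown, so no counting interval is given, and a 0 can be a failed estimate. FPKM summed to between 521059 and 559542 in mated and between 355905 and 405177 in virgin libraries, and libraries of a group correlated at 0.960 to 0.971 (Spearman). The miRNA table was not used here.

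The members and lists were chosen with earlier results of these data known, and 1 transcript is not reported here. The 9 mated libraries were fitted with limma 3.58.1 (R 4.3.3; moderated statistics, variance trend) on log2(FPKM + 1), which understates changes of low transcripts, for 17362 transcripts averaging at least 0.1 FPKM. Two-sided p-values received Benjamini-Hochberg adjustment across all transcripts of a comparison. The code was tested on simulated data. Gene IDs came from the study's supplementary tables and a RefSeq table of another assembly. Named members are the 10 with the highest mated mean, the 5 with the lowest and the 5 with the highest CV, those with an adjusted p under 0.05 and those at 0 in all virgin libraries. Alternatives were other thresholds, all 12 libraries, a replicate block, pseudocounts of 0.1 and 0.01, no filter, a minimum of 1 FPKM, 2 rescalings, gene sums and each library left out.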

Additional observations from a re-analysis of the deposited data

How the results depend on the processing

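The number of members followed the thresholds: 42 with a virgin mean of at most 0.5 FPKM, 147 at 2, 168 with at least 2 FPKM in each mated library, 32 with at least 10, and 133 with a mated mean of at least 5. It was 55 with at most 1 FPKM in each virgin library, 54 after rescaling to the same sum, 55 with FPKM summed per gene where a gene ID was known, and between 72 and 85 without 1 library. The median CV was between 22.5% and 24.1% without 1 library and 20.4% without recovery queens 2 and 3, an alternative chosen after seeing the data. Counts of members with an adjusted p under 0.05 without 1 library were between 1 and 4 for recovery against inhibited queens, 0 and 2 for recovery against egg-laying queens, 0 and 1 for inhibited against egg-laying queens, and 0 and 3 over the 3 mated groups. The last was 1 with a pseudocount of 0.01, 0 without a filter and 1 after rescaling by the median of ratios. Over all transcripts, 219 passed for recovery against inhibited queens (118 with all 12 libraries, 98 with the block, 47 to 334 without 1 library), 15 for recovery against egg-laying queens (9, 3, and 2 to 109 under the same alternatives, 29 with a minimum of 1 FPKM and 35 rescaled to the same sum), 17 for inhibited against egg-laying queens (4 with the block or no filter, 27 with a pseudocount of 0.01, 4 to 35 without 1 library), and 120 over the 3 groups (79 with all 12 libraries, 33 with the block, 22 to 208 without 1 library). The cause of these changes was not tested.

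The replicate numbers were not taken as a pairing of queens. Deviations from the group means correlated over 0.1 in only 1 of 9 same-numbered pairs (from -0.10 to 0.12). Differently numbered pairs ran from -0.11 to 0.12. With 3 queens per group, these correlations cannot show whether queens were paired. With a replicate block, 1 member passed for recovery against inhibited queens and 1 over the 3 groups. Alternatives were also counted for 16 log2 differences of named members, not all of them given above. These were all 3 comparisons of each of the 3 members that passed. For other named members, it was the comparison with the lowest limma p, where that was under 0.05 before adjustment. The difference of Obp13 between recovery and egg-laying queens is thus not among them. Of 272 alternative values, 256 kept direction and call, 14 lost the call (of XM_006563358.1 and XM_624017.4), 2 gained it and 0 changed direction.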
